A study of Homo sapiens with 6 samples.

Results

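The genes that encode the proteins of the cytosolic ribosome were examined for RNA polymerase II (RNA pol II) occupancy in HepG2 cells, an established human liver tumor line, that did or did not carry the tyrosine phosphatase SHP-1. The members were the gene symbols in the authors' annotation of the occupied regions that begin with RPL or RPS and end in a number, with or without A, X, L or Y1, together with RPLP0, RPLP1, RPLP2 and RPSA. Pseudogene symbols were left out. This gave 79 genes of 16428 annotated symbols, 47 of the large and 32 of the small subunit, and 1366 of 271336 regions. The SHP-1 KO cells were a clonal line made with CRISPR/Cas9 and guides against exons of the phosphatase domain of PTPN6, the gene for SHP-1, and the SHP-1 WT cells were the CRISPR control line, for which the methods describe a nontargeting guide. Both lines were grown from single cells. All cells were untreated. Chromatin of each line was precipitated once with an antibody to RPB1 (ab817), the largest subunit of RNA pol II, and once with an antibody to RPB1 phosphorylated on serine 2 of its C-terminal domain (pSer2-RPB1). The 4 ChIP libraries were compared here, and the 2 input libraries were not analysed here. With 1 library per antibody and cell type, no difference has a replicate check, and a clone cannot be told apart from its genotype.

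A ribosome holds 1 copy of nearly every ribosomal protein, and the genes lie scattered over the genome, on 22 chromosomes in this set. They are among the most strongly transcribed genes of growing cells. Many of their transcripts begin with a C followed by a run of pyrimidines, the terminal oligopyrimidine motif through which mTOR signaling controls their translation, and many of their introns encode small nucleolar RNAs (snoRNAs). RNA pol II gathers just downstream of a gene start before it elongates, and serine 2 of its C-terminal domain carries more phosphate toward the end of the gene.

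The start sequences were taken from RefSeq (GRCh38.p14), which held a promoter for 63 of the 79 genes, with the same start as GENCODE 44 in 61 of them. Of these 63 genes, 47 (74.6%) began with a C followed by at least 4 pyrimidines, against 4.71% of 15344 protein-coding genes. The sequences below run from 15 bases before the start to 15 bases from it onward, with this pyrimidine run in capitals as far as the window shows it. The first lines give the 3 genes with the highest RPB1 enrichment at the start in SHP-1 WT cells, followed by the genes of the other proteins of the ribosomal stalk, RPSA and a gene with low enrichment. The last lines show RPS27 beside its paralog RPS27L, which lacks the run, and RPL15 and RPS26, whose RefSeq starts lack the motif.
RPS21, chr20:62387088-62387117, plus strand: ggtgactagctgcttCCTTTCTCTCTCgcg
RPL14, chr3:40457324-40457353, plus strand: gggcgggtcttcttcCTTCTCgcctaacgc
RPLP1, chr15:69452803-69452832, plus strand: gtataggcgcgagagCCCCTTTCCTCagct
RPLP0, chr12:120201097-120201126, minus strand: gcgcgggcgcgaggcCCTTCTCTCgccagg
RPLP2, chr11:809952-809981, plus strand: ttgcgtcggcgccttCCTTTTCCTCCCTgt
RPSA, chr3:39406705-39406734, plus strand: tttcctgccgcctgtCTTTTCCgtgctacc
RPL21, chr13:27251543-27251572, plus strand: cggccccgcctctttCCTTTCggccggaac
RPS27, chr1:153990747-153990776, plus strand: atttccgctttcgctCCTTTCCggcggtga
RPS27L, chr15:63157463-63157492, minus strand: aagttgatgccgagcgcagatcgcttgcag
RPL15, chr3:23917117-23917146, plus strand: cccaaaaggcattgtgggagtacagctctt
RPS26, chr12:56041903-56041932, plus strand: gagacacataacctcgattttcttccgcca

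The pyrimidine run was 5 to 19 bases long in these 47 genes, with a median of 8 bases, and was longest at RPL39. In the 300 bases around the start (250 before and 50 after), on either strand, CCGGAAG was found in 34.9% of the member promoters and 14.8% of all promoters, and TCGCGAG in 19.0% and 3.6%. AAGATGG was found in 12.7% of the member promoters and 6.56% of all. GGGCGG (57.1% and 61.8%), TATAAA (7.94% and 9.41%) and CACGTG (4.76% and 8.86%) were not more frequent in the members. These counts describe letters in a window and do not show binding by a factor. The median RPB1 fold enrichment over input at the start was 40.3 in SHP-1 WT and 36.0 in SHP-1 KO cells for the 47 genes with the pyrimidine start, and 37.6 and 28.2 for the 16 genes without it.

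In the authors' lists, 340 of 46045 RPB1 regions in SHP-1 WT and 299 of 41605 in SHP-1 KO cells carried the symbol of a ribosomal protein gene, and for pSer2-RPB1 388 of 102674 and 339 of 81012. By these symbols, a promoter region for RPB1 was listed at 71 genes in SHP-1 WT and 66 in SHP-1 KO cells, and a gene body region at 42 and 44. The symbol is that of the nearest annotated transcript, which at ribosomal protein genes was often that of a neighboring protein-coding gene, such as NKIRAS1 at RPL15. In other cases it was a snoRNA, a microRNA or a read-through transcript. When regions were placed by the position of their summit against GENCODE 44, an RPB1 region lay within 1 kb of the start of 77 of the 79 genes in both cell types. Of these 77 start regions, 49 carried the gene's own symbol in SHP-1 WT and 48 in SHP-1 KO cells, while 28 and 29 carried another symbol, which was that of a snoRNA or its host gene in 7 and 9 cases. RPL10A and RPS20 fit the naming pattern but had no region under their own symbol, although RPB1 fold enrichment at their starts was 58.4 and 52.1 in SHP-1 WT and 52.0 and 23.9 in SHP-1 KO cells. RPL10L had no region by either assignment. The values below are by position unless the symbol is named.

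RPB1 was strongly enriched at the starts of the ribosomal protein genes in both cell types. In SHP-1 WT cells, the fold enrichment of the strongest region within 1 kb of the start was 10.5 to 82.8 over the 77 genes, with a median of 40.3, against a median of 28.7 over the 11709 protein-coding genes with such a region. In SHP-1 KO cells it was 10.9 to 82.2, with a median of 34.1, against 20.6 over 11391 genes. Large and small subunit genes had similar medians, at 39.5 and 41.0 in SHP-1 WT and 34.7 and 33.9 in SHP-1 KO cells. The summit lay 0 to 150 bp downstream of the start in 67 of the 77 genes in SHP-1 WT and 68 in SHP-1 KO cells. This share was not computed over all genes. The median distances were 44 and 38 bp, close to the 44 and 41 bp over all genes. The start was also where RPB1 was strongest along the gene, in 73 of 78 genes with a region in SHP-1 WT cells (84.5% over all genes) and 70 of 77 in SHP-1 KO cells (85.4%).

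**Figure D1:**
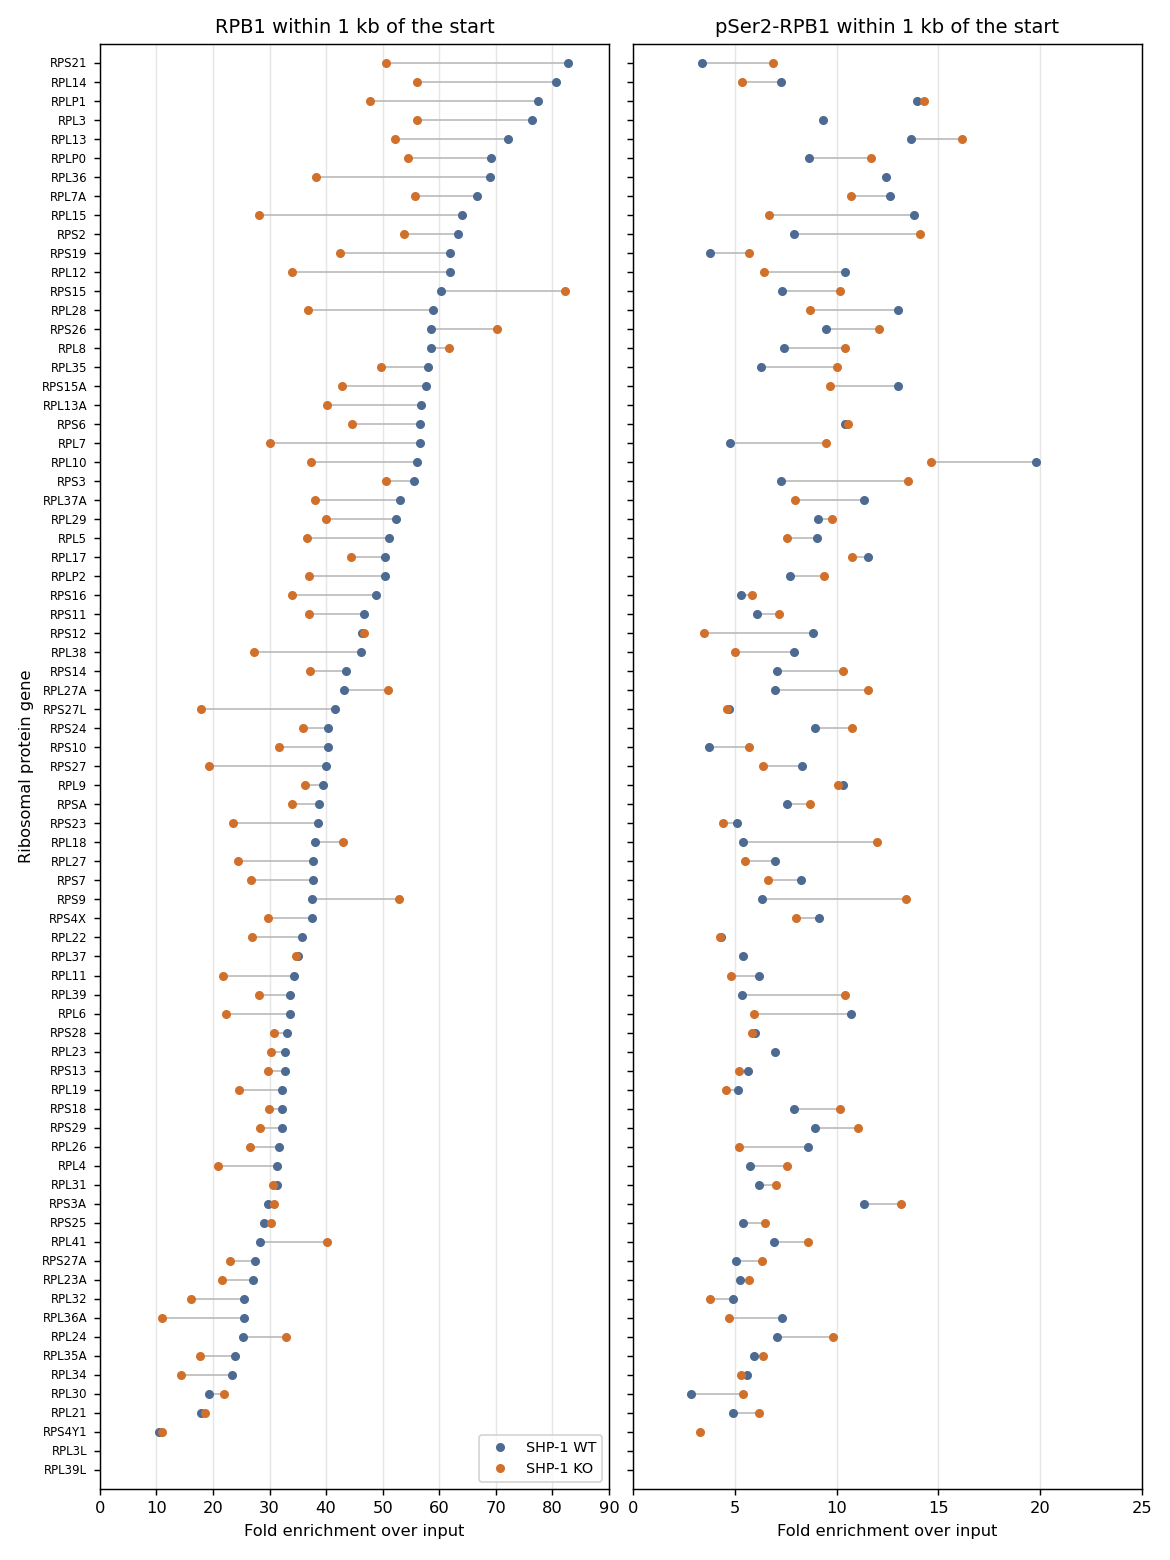
RPB1 (left) and pSer2-RPB1 (right) fold enrichment over input of the strongest region within 1 kb of the start of each of 75 of the 79 ribosomal protein genes, ordered by RPB1 in SHP-1 WT cells (blue, SHP-1 WT; orange, SHP-1 KO; 1 library each). A missing point means that no region was listed there; for RPB1, 59 of the 73 plotted genes with both points have the orange one to the left, while the median ratio over all members is above 1 (1.10) relative to that of all genes.

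RPS21, a small subunit protein gene on chromosome 20 (62387103-62388520, hg38), had the highest RPB1 fold enrichment at its start in SHP-1 WT cells, at 82.8, and 50.5 in SHP-1 KO cells. RPL14 on chromosome 3 (40457339-40468587), which encodes a large subunit protein, had 80.7 and 56.0. RPLP1 on chromosome 15 (69452818-69456205), which encodes a protein of the stalk that recruits elongation factors, had 77.5 and 47.8. The values of all 3 genes were lower in SHP-1 KO cells but above the member median there. At the other extreme, RPS4Y1 had 10.5 and 10.9, RPL21 had 17.9 and 18.7, and RPL30 had 19.3 and 22.0. By symbol, the lowest promoter values in SHP-1 WT cells included those of RPL36A (4.51) and RPL17 (4.93), whose start regions carried the symbols RPL36A-HNRNPH2 and RPL17-C18orf32. By position, these starts had 25.4 and 50.4. The low values by symbol at both genes belonged to other, weaker regions.

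Among the paralogs, the tissue-restricted RPL3L had no RPB1 region at its start by position in either cell type, although a promoter region carried its symbol in both lists (18.5 and 7.92), whereas RPL3 had a fold enrichment of 76.4 in SHP-1 WT and 56.1 in SHP-1 KO cells. RPL39L likewise had no region at its start, and RPL39 had 33.7 and 28.1. RPS27L, which encodes a protein close to RPS27 and lacks the pyrimidine start of RPS27, had 41.6 in SHP-1 WT and 17.9 in SHP-1 KO cells, close to the 39.9 and 19.2 of RPS27. RPS4X, the X-linked partner of RPS4Y1, had 37.5 and 29.8. Ribosomal protein genes have many processed pseudogenes with nearly the same exons, and the treatment of reads that match several places is not given in the sources used here, so its part in these values was not tested.

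To ask whether loss of SHP-1 went with a different RNA pol II occupancy at the start of these genes, the KO to WT ratio of fold enrichment was taken for each gene. RPB1 at the start was lower in SHP-1 KO cells in 63 of 77 genes (87.4% of all genes), and the median ratio was 0.792, against 0.718 over 11108 protein-coding genes. By at least 1.5-fold, 18 of the 77 genes were lower (39.6% of all genes) and 0 were higher (1.07%). The lower values at the start were thus shared with most of the genome and were less frequent past 1.5-fold in the ribosomal protein genes than over all genes. The median of all genes was -0.48 on the log2 scale, and relative to it the member median turned from 0.792 to 1.10, above 1. For mitochondrial ribosomal protein genes the median ratio was 0.739 (77 genes), and for proteasome subunit genes 0.778 (36 genes).

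The strongest RPB1 region anywhere along the gene gave the same median ratio of 0.792 by position, with 61 of 77 genes lower in SHP-1 KO cells (86.8% of all genes), 18 of them by at least 1.5-fold (39.3%), and 0 higher by as much (1.32%). By symbol the median was 0.876 over 69 genes, which turned to 1.19 relative to the median of all genes. By this assignment, 13 genes were lower (36.5% of all genes) and 4 were higher by at least 1.5-fold (2.65%). Promoter regions alone gave the same median over 65 genes, of which 41 were lower in SHP-1 KO cells (84.8% of all genes). The highest and the lowest ratio by symbol were not found by position. RPS3 had a ratio of 0.0583 by symbol, because the region at its start carried the symbol RPS3 in SHP-1 WT cells and SNORD15A in SHP-1 KO cells, and by position its start had 55.5 in SHP-1 WT and 50.6 in SHP-1 KO cells. RPL8 had 6.73 by symbol, and by position 58.5 and 61.7. RPL23 (1.99), RPL9 (1.88), RPL4 (1.56) and RPS27A (1.46) followed RPL8 by symbol, and their starts were all lower in SHP-1 KO cells by position. At the low end by symbol, RPL3L (0.428), RPS27L (0.431), RPS27 (0.536) and RPL36 (0.555) followed RPS3. In 13 of 68 genes with both values, the ratios by symbol and by position differed by at least 1.5-fold.

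By position, the lowest RPB1 ratios at the gene were those of RPS27L (0.431), RPL15 (0.439), RPS27 (0.481) and RPL36A (0.498). At RPL15 the fold enrichment was 63.9 in SHP-1 WT and 28.1 in SHP-1 KO cells, with the start of NKIRAS1 within 1 kb. In all, 17 members had the start of another protein-coding gene within 1 kb, whose RNA pol II cannot be told apart at this resolution. The highest ratios were those of RPS9 (1.41), RPS15 (1.36), RPL41 (1.35), RPL24 (1.30) and RPS26 (1.20). RPS15 had 60.3 and 82.2, and the latter was the highest start value among the members in SHP-1 KO cells. All 5 genes also had higher pSer2-RPB1 at the start in SHP-1 KO cells, with ratios of 2.12 at RPS9, 1.39 at RPS15, 1.24 at RPL41, 1.39 at RPL24 and 1.28 at RPS26, as had 40 of 70 members and 47.0% of all genes.

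By symbol, a promoter RPB1 region was listed in SHP-1 WT cells alone at 6 of 72 genes (7.64% of all genes), among them RPL10, RPL23A, RPL7A, RPLP0 and RPS3, and in SHP-1 KO cells alone at RPL12 (1 of 72 genes, 4.51%). By position, all 7 genes had a start region in both lists, and 0 of 77 members had one in a single list (5.01% of all genes for SHP-1 WT and 2.36% for SHP-1 KO).

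RPB1 regions covered 67.9% of the length of the median ribosomal protein gene in SHP-1 WT and 74.6% in SHP-1 KO cells, counted from 1 kb upstream of the start to the gene end over the 77 genes covered in both lists. The covered share was higher in SHP-1 KO cells in 60 of 77 genes (29.9% of all genes), with a median difference of 6.37 percentage points, against -0.40 points over 12271 protein-coding genes. It was at least 10 points higher in 32 genes (2.40% of all genes) and at least 10 points lower in 2 (8.75%). In the body alone, from 1 kb after the start to the gene end, the median share was 60.4% in SHP-1 WT and 76.6% in SHP-1 KO cells, and 64 of 74 genes were covered more in SHP-1 KO cells (34.5% of all genes). The 10-point rule was chosen after the values were seen.

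Ribosomal protein genes are short, with a median length of 4701 bp against 22897 bp over 20020 protein-coding genes, and their covered share was high from the outset. The comparison was also made among genes covered on average for at least 50% of their length over both lists. This limit was chosen after the values were seen and is set on the same covered shares that are compared. It does not match genes by length, and the part of length in the difference was not tested. Within this limit, 47 of 62 members were covered more in SHP-1 KO cells (75.8%), against 343 of 1204 other genes (28.5%). The median differences were 6.12 and -4.13 points. RPB1 regions covered at least 90% of the gene at 11 members (14.1%) in SHP-1 WT and 20 (26.0%) in SHP-1 KO cells. Over all genes with a region, these numbers were 358 of 12921 (2.77%) and 285 of 12423 (2.29%). The longest region at a member had a median length of 2554 bp with SHP-1 and 3186 bp without it, against 1430 and 1269 bp over all genes with a region. The length of a called region depends on the depth of the library, which is unknown here, and its part in the difference was not tested.

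**Figure D2:**
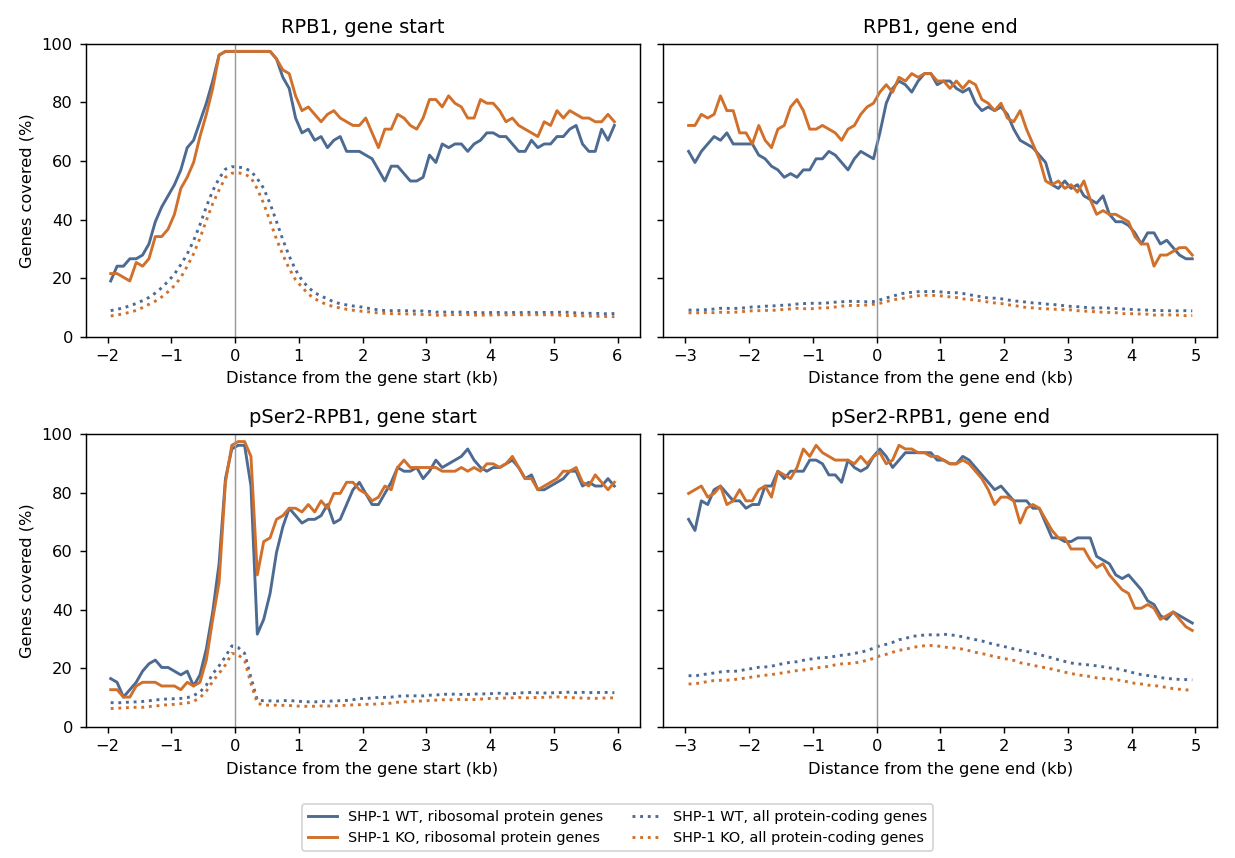
Share of genes (%) with an occupied region in each 100-bp bin by distance (kb) from the gene start (left) and gene end (right), for RPB1 (top) and pSer2-RPB1 (bottom); solid lines, 79 ribosomal protein genes; dotted lines, all protein-coding genes; blue, SHP-1 WT; orange, SHP-1 KO. RPB1 covers 77 members at the start in both cell types, and at 3 kb downstream of the start 49 in SHP-1 WT and 64 in SHP-1 KO cells.

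In the 100 bp from the start onward, 77 of 79 members were covered in both cell types, so this measure could hardly differ there. Upstream of the start, in the bin 1 kb before it, 41 members were covered in SHP-1 WT and 33 in SHP-1 KO cells, and over all genes 4272 and 3482 of 20020. At 2 kb downstream of the start, 49 members were covered in SHP-1 WT and 59 in SHP-1 KO cells, and at 3 kb 49 and 64. Over all genes the order was the opposite, with 1963 genes covered in SHP-1 WT and 1705 in SHP-1 KO cells at 2 kb. At 3 kb these numbers were 1720 and 1499. Close to the gene end, in the bin 500 bp before it, 45 members were covered in SHP-1 WT and 56 in SHP-1 KO cells. In the bin 1 kb past the end, 69 were covered in both. Over all genes, the bin before the end held 2412 and 2129 genes, and the bin past it 3038 and 2765. In short members, the bins past the gene length lie outside the gene.

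**Figure D3:**
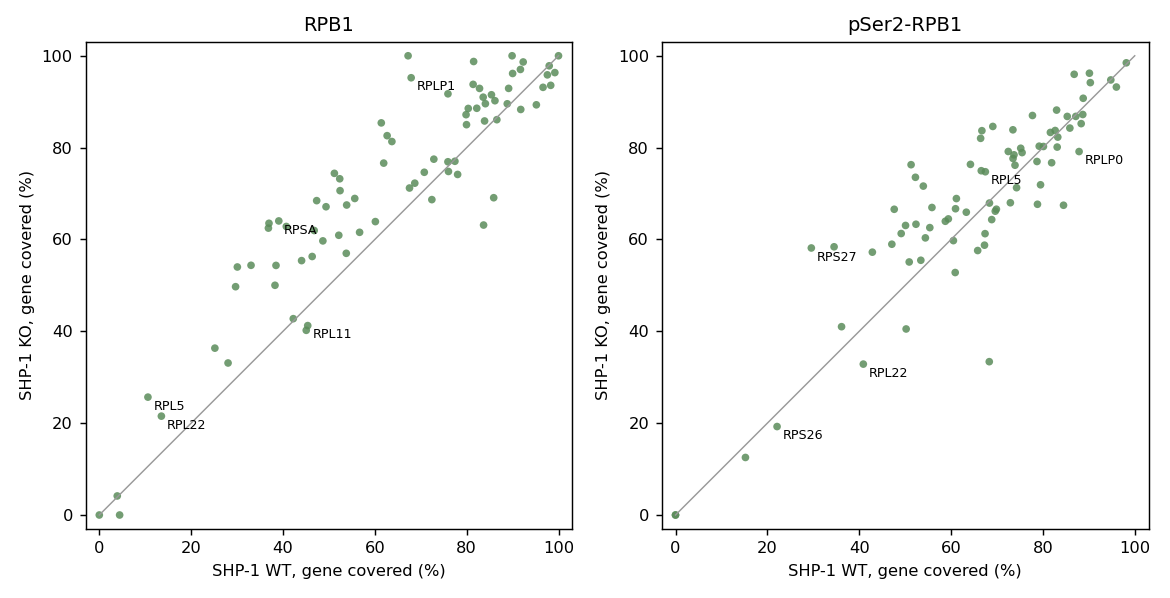
Share of each ribosomal protein gene (%) covered by RPB1 (left) and pSer2-RPB1 (right) regions, from 1 kb upstream of the start to the gene end, in SHP-1 WT (horizontal) and SHP-1 KO cells (vertical); each point is 1 gene and the line marks equal shares. For RPB1, 60 of 77 genes lie above the line, and for pSer2-RPB1 47 of 77.

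The stalk proteins RPLP0, RPLP1 and RPLP2 and the small subunit protein RPSA, also known as a laminin receptor, are described one by one. At RPLP1, RPB1 covered 67.9% of the gene in SHP-1 WT and 95.2% in SHP-1 KO cells, while the start value went the other way. At RPSA (chromosome 3, 39406720-39412542), 39.1% and 64.0% were covered, and the start had a fold enrichment of 38.7 and 34.0. RPLP2 had 85.4% and 91.5% covered, with 50.4 and 36.9 at the start. RPLP0 differed little in coverage, with 88.8% and 89.5%, and had 69.2 and 54.4 at the start. All 4 genes were covered more in SHP-1 KO cells (29.9% of all genes) and had lower RPB1 at the start, as 87.4% of all genes did.

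A chosen list of 9 members mutated in Diamond-Blackfan anemia, an inherited failure of red cell production, is taken next, and it does not hold every member known from this disease. RPB1 covered more of the gene in SHP-1 KO cells in 8 of the 9 (29.9% of all genes), with a median difference of 13.6 points. It was lower at the start in 8 of the 9, close to the 87.4% of all genes. Members known from the disease but not on the list went both ways. RPL15, RPL18 and RPL27 were covered less in SHP-1 KO cells. RPL9, RPL26, RPL31, RPL35, RPS15A, RPS27, RPS28 and RPS29 were covered more. RPS24 was covered for 51.2% and 74.4% of its length and RPL35A for 47.3% and 68.5%. RPS10 (53.9% and 67.5%), RPL5 (10.6% and 25.7%), RPS7 (48.7% and 59.7%), RPS19 (80.0% and 85.0%) and RPS26 (53.8% and 57.0%) followed. RPL11, which with RPL5 binds MDM2 when ribosome assembly fails, was the exception in coverage, at 45.4% in SHP-1 WT and 41.2% in SHP-1 KO cells. RPS26 was the exception at the start, with 58.6 and 70.2.

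On the short arm of chromosome 1, RPL22, RPL11 and RPL5 had lower RPB1 at the start in SHP-1 KO cells, as most genes did. The start values were 35.8 and 26.9 at RPL22 (6185020-6199595), 34.3 and 21.7 at RPL11 (23691806-23696835), and 51.1 and 36.6 at RPL5 (92832040-92841924). The covered share was higher in SHP-1 KO cells at RPL5 and RPL22 (13.5% and 21.5%) and lower at RPL11. The 2 members with a covered share at least 10 points lower in SHP-1 KO cells, named after their values were seen, were RPL18 (83.7% and 63.1%) and RPL7A (85.9% and 69.1%).

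RPB1 fold enrichment near the gene end, from 1 kb before to 3 kb after it, was higher in SHP-1 KO cells in 45 of 68 members (34.4% of all genes), with a median ratio of 1.16 against 0.879 over 4464 genes. By at least 1.5-fold, 9 members were higher (5.96% of all genes) and 5 lower (20.6%). Relative to the median of all genes, the member median at the end was 1.32. Regions with their summit in the body gave a median ratio of 1.08 over 45 members, against 0.899, with 5 members higher (6.02% of all genes) and 1 lower (19.2%) by at least 1.5-fold. Similar groups shared part of this. In the list of other translation genes described below, the medians were 1.12 at the end (14 of 19 higher) and 1.10 in the body. They were 1.05 and 1.04 in proteasome subunit genes, and 0.852 and 1.01 in mitochondrial ribosomal protein genes. In 36 of the 67 members with RPB1 regions at both places, the start was lower and the end higher in SHP-1 KO cells (30.5% of 3719 genes), in 18 both were lower, in 8 both were higher, and in 5 the start was higher and the end lower. The median end to start ratio of RPB1 within a gene was 0.411 in SHP-1 WT and 0.553 in SHP-1 KO cells, with a quotient of 1.34. Over all genes it was 0.270 and 0.348, with a quotient of 1.29. The quotient was 1.40 in the list of other translation genes, 1.36 in proteasome subunit genes and 1.28 in mitochondrial ribosomal protein genes. A higher ratio in SHP-1 KO cells was thus not particular to the members. These quotients divide medians over the genes with both regions in each list and are not paired by gene. The lists held 70 and 72 such members and 4683 and 4394 such genes. In these compact gene neighborhoods, the window past the end can hold regions of a neighboring gene.

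**Figure D4:**
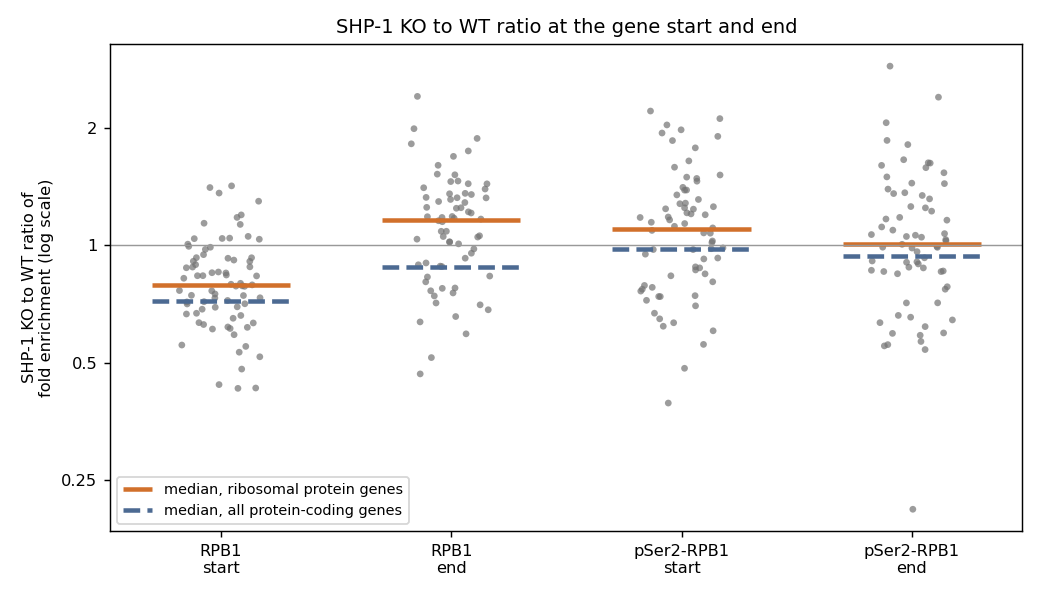
SHP-1 KO to WT ratio of fold enrichment (log scale) at the gene start (within 1 kb) and gene end (1 kb before to 3 kb after) for RPB1 and pSer2-RPB1; each point is 1 ribosomal protein gene, solid orange lines are member medians and dashed blue lines medians over all protein-coding genes. The RPB1 member medians are 0.792 at the start (1.10 relative to all genes) and 1.16 at the end, and those of pSer2-RPB1 are 1.10 and 1.01.

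pSer2-RPB1 had a different shape along the same genes. It was strongest in the last 1 kb of the gene or past it in 60 of 77 members in SHP-1 WT cells (31.9% of all genes) and in 61 of 77 in SHP-1 KO cells (31.2%). The median fold enrichment was 7.28 at the start and 15.8 at the end in SHP-1 WT cells, and 7.57 and 15.8 in SHP-1 KO cells. Within genes, the median end to start ratio was 2.04 in SHP-1 WT and 1.91 in SHP-1 KO cells, against 1.33 and 1.31 over all genes. For mitochondrial ribosomal protein genes it was 1.29 and 1.37, and for proteasome subunit genes 1.61 and 1.55. In the list of other translation genes described below it was 1.66 in SHP-1 WT cells, below the members, and 1.91 in SHP-1 KO cells, as in the members. The end value was higher than the start value in 62 of 68 members in SHP-1 WT and 61 of 69 in SHP-1 KO cells, against 70.0% and 69.9% of all genes. Among the other translation genes it was higher in 16 of 18 in both lists, so this trait was not particular to the members.

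The start of the members was marked by pSer2-RPB1 as well, at 74 genes in SHP-1 WT and 72 in SHP-1 KO cells, and the profile dipped just downstream. In the bin from 300 bp after the start, 25 of 79 members were covered in SHP-1 WT and 41 in SHP-1 KO cells, between 76 and 77 at the start itself and 69 and 70 at 3 kb downstream. In the bin from 500 bp, 36 and 51 members were covered. Over all genes, the bin from 300 bp held 1815 genes in SHP-1 WT and 1602 in SHP-1 KO cells, and the bin from 500 bp 1772 and 1469. These bins were picked out after the profile was seen.

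The KO to WT ratios of pSer2-RPB1 lay around 1 at the members. The strongest region at the gene had a median KO to WT ratio of 1.08 over 77 members, against 0.938 over 9404 genes. By at least 1.5-fold, 15 members were higher (6.62% of all genes) and 9 lower (13.3%). The list of other translation genes described below had a median of 1.23 over 22 genes, with 6 higher and 1 lower by at least 1.5-fold. Mitochondrial ribosomal protein genes had a median of 0.925 and proteasome subunit genes 0.962. Near the gene end, the other translation genes had a median of 1.18. At the start the median ratio was 1.10 over 70 members, of which 30 were lower in SHP-1 KO cells (53.0% of all genes), 7 of them by at least 1.5-fold (13.7%), and 11 were higher by at least 1.5-fold (10.4%). In the body the median was 1.02 over 50 members, with 25 lower (57.5% of all genes), and by at least 1.5-fold 8 were higher (5.18%) and 5 lower (8.89%). At the end it was 1.01 over 69 members, with 11 higher (7.16%) and 13 lower (13.7%) by at least 1.5-fold. By symbol it was 1.05 over 69 members, with 12 higher (6.64%) and 8 lower (11.8%), and in promoter regions 13 of 68 members were higher (8.39%). pSer2-RPB1 covered 68.9% of the median member in SHP-1 WT and 71.9% in SHP-1 KO cells, with 47 of 77 genes covered more in SHP-1 KO cells (28.2% of all genes) and 17 covered at least 10 points more (3.13%). Among genes covered for at least 50% on average, a limit set on the same values, 44 of 70 members (62.9%) were covered more. Of the other genes, 411 of 1301 were (31.6%).

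The highest pSer2-RPB1 ratios by position included those of RPS19, RPL21, RPS9 and RPL19. RPS19, the gene most often mutated in Diamond-Blackfan anemia, had 12.5 in SHP-1 WT and 29.9 in SHP-1 KO cells, with a ratio of 2.40. At RPL21 the strongest region lay at different places in the lists, and like for like the start had 4.94 and 6.21 and the end 12.8 and 11.1. The ratio was 2.24 at RPL21, 2.12 at RPS9 and 2.10 at RPL19. At RPS9 it was that of the start (6.34 and 13.4), while the end had 23.4 and 19.8. At RPL19 the start had 5.17 and 4.56 and the end 16.5 and 26.9. RPS28 (0.380), RPL15 (0.540), RPL3 (0.552), RPS2 (0.556) and RPL32 (0.596) had the lowest. At RPS28 the end itself had 20.7 and 18.8. RPL3 had 34.3 in SHP-1 WT and 18.9 in SHP-1 KO cells and RPS2 had 31.5 and 17.5, and at both genes the strongest summit lay past the gene end in both lists. By symbol, the highest ratios included those of RPL37 (5.51), RPL27A (3.18), RPL19 (2.10) and RPL39 (1.94), and the lowest those of RPL13 (0.316), RPS12 (0.394), RPL15 (0.540), RPL18 (0.543) and RPL9 (0.603). By position, the ratio was 1.37 at RPL37 and 1.39 at RPL27A, and it turned above 1 at RPL13 (1.09), RPS12 (1.07) and RPL18 (1.26). RPL15 and RPL19 were named by both assignments.

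By position, a pSer2-RPB1 region at the start was found in SHP-1 WT cells alone at RPL23, RPL3, RPL36 and RPL37 (4 of 76 members, 19.7% of all genes) and in SHP-1 KO cells alone at 2 of 76 (11.7%), with RPS4Y1 among them. RPL13A had none in either list. By symbol, 6 of 76 members had a promoter region in SHP-1 WT cells alone (18.9% of all genes), among them RPL13, RPL17, RPL3, RPL3L and RPS25, and RPLP0 and RPS10 in SHP-1 KO cells alone (8.29%). In the list without a start summit, RPL3, RPL23, RPL36 and RPL37 each had a single long region, of 10504, 9734, 11454 and 12013 bp, with its summit farther downstream. The 100 bp from the start onward were covered by pSer2-RPB1 in 76 members in SHP-1 WT and 77 in SHP-1 KO cells.

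Other genes of translation, a list of 22 elongation and initiation factors and co-regulated genes such as EEF1A1 and TPT1, all had an RPB1 region at the start in both cell types. Their RPB1 start ratio had a median of 0.862, and 16 of the 22 were covered more in SHP-1 KO cells, with medians of 26.4% in SHP-1 WT and 32.8% in SHP-1 KO cells. TPT1, which encodes a growth-related protein with a pyrimidine start, was covered for 74.1% and 92.8%, NPM1, a nucleolar ribosome assembly factor, for 15.6% and 32.9%, and RACK1, a small subunit scaffold protein, for 85.3% and 96.1%. FAU, which encodes a ribosomal protein fused to a ubiquitin-like domain and does not match the naming pattern, went the other way, with 74.8% and 51.3%. Among mitochondrial ribosomal protein genes, 29 of 77 were covered more in SHP-1 KO cells, and among proteasome subunit genes 18 of 37.

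As a check of the material, 15 of 16 hepatocyte genes, ALB, AFP and APOA1 among them, had an RPB1 region at their start in both lists. Of 5 blood cell genes, 1 had a region in SHP-1 WT cells, with a fold enrichment of 3.53, and 0 in SHP-1 KO cells, and of 4 fibroblast genes 0 had a region in either list. PTPN6 itself kept promoter RPB1 regions, with a fold enrichment of 24.0 in SHP-1 WT and 17.2 in SHP-1 KO cells, which measures RNA pol II and not the SHP-1 protein.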

How the data were processed

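Per the study's methods and labels, the authors used Trimmomatic for trimming, BWA for alignment to hg38 and MACS2 for narrow peaks, which were called per library with the matching input as control, and annotated each region with a feature and nearest gene; tool versions are not given in the sources used here. The deposited lists give each region a ratio, its summit's fold enrichment over input, with the authors' −log10 p-value and −log10 q-value per region. A further deposited table holds the authors' own comparison of RPB1 between the cell types and was not used. Read counts are not part of the lists, and library depth is therefore unknown. The input libraries were not analysed here.

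The members and gene lists were chosen with earlier results of these data known. Regions were assigned by the authors' symbol or by position, with 1 transcript for each of 20020 protein-coding genes of GENCODE 44. Of 213 member transcripts named in the lists, 206 were found there, 92.2% of these with ends within 200 bp. Start regions had a summit within 1 kb of the start, and end regions from 1 kb before to 3 kb after the end. The covered share, a measure chosen after seeing the data, counted the bases of a gene, from 1 kb upstream of its start to its end, that lay in any region. For each gene the strongest region was taken. With 1 library per condition no test was run, and called means a KO to WT ratio past 1.5-fold, set beside the share over all genes.

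Named genes were the 3 highest and 3 lowest RPB1 values at promoters in SHP-1 WT cells, the 5 highest and 5 lowest KO to WT ratios per antibody, genes with a promoter region in 1 cell type, the stalk genes and RPSA, paralogs, Diamond-Blackfan anemia genes and members on the short arm of chromosome 1. Some genes that this rule takes are not reported here by name, and they remain in all counts and medians. Functions were tested on simulated lists. Alternatives were a stricter −log10 q-value, a 2-fold threshold, assignment by position, leaving out paralogs, ratios divided by the median of all genes, length times fold enrichment, and reciprocal overlap. Python 3.11.15, pandas 2.3.3, NumPy 2.4.6, SciPy 1.17.1 and matplotlib 3.10.9 were used.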

Additional observations from a re-analysis of the deposited data

How the results depend on the processing

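No paired analysis was possible because each antibody and cell type had 1 library, and for the same reason no replicate could be left out. Of 110 values recomputed under alternatives that could change them, 96 stayed within 1.5 times the count, or within the 95% order-statistic interval of the median, that was reported. Assignment by position in place of the authors' symbol moved the median promoter RPB1 fold enrichment in SHP-1 WT cells from 34.3 to 40.3. It moved the number of genes with RPB1 at least 1.5-fold higher in SHP-1 KO cells from 4 to 0. With a 2-fold threshold, by symbol, 3 genes were lower and 1 higher for RPB1, and 2 lower and 4 higher for pSer2-RPB1. Divided by the median of all genes, the median RPB1 ratio by symbol turned from 0.876 to 1.19, with 3 genes lower and 21 higher. With the length times fold enrichment summed over regions, 15 genes were higher for RPB1 and 19 for pSer2-RPB1. For the 2-fold threshold, the division by the median and the length measure, the share over all genes was not computed. These counts therefore have no background beside them. A KO region overlapped 135 of the SHP-1 WT promoter regions for RPB1 and 169 for pSer2-RPB1 by at least 1 bp, and 73 and 98 by a reciprocal 50%. For the covered share, alternatives were chosen after seeing the data. In the body alone the median RPB1 difference was 12.6 in place of 6.37 points, and with only regions past 5 on the −log10 q-value scale it was 6.20 points, with 59 of the members covered more in SHP-1 KO cells. Leaving out paralogs moved no value past these limits. A distance limit of 1 kb on promoter regions and counting repeated intervals once could not change a value, since promoter regions lay within 1000 bp and 0 intervals were repeated. Depth is unknown, so a region missing from 1 list is not shown to be absent there.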
